A study of Mus musculus with 24 samples.

Results

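The sarcomeric myosin heavy chains are the motor proteins of the thick filament of striated muscle, and 8 of their genes (Myh1, Myh2, Myh3, Myh4, Myh6, Myh7, Myh7b and Myh8) were followed here in contracting myotubes under low oxygen. The members were taken by gene symbol through the GRCm38 annotation, not by measured values, although earlier results of these data were known. They are 8 of the 55487 genes listed. All 8 passed the filter on low values, as did 14541 genes in all. RNA was sequenced from C2C12 myotubes, fused muscle cells that were grown from an immortal line of mouse skeletal myoblasts and labelled as day 5 of differentiation. The 24 libraries fell into 4 groups of 6. All myotubes had been grown and differentiated in 5 % O2. In 5 % CTRL they stayed for the 2 h of the experiment in 5 % O2 and in 1 % CTRL they spent these 2 h in 1 % O2, both without stimulation. In 5 % STIM and 1 % STIM electrical stimulation at the same O2 followed these 2 h, by the methods of the study. It was given as 6 bouts that lasted 30 s each and were 4 min apart, with 2 ms pulses at 14 V and 50 Hz. RNA was taken directly afterwards. The methods also state that medium was replaced before and after stimulation. Whether unstimulated myotubes had the same added time and medium changes is not said, and the effects of these were not tested. No group carried a genetic change. The cells are a single line without motor nerve, load or neighbouring tissue. The methods of the study call the libraries of a group biological replicates, and whether each had its own culture preparation is not said in the labels. The p-values thus measure the spread between these libraries.

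Each muscle fibre makes 1 or a few of these heavy chains, and the isoform sets how fast the fibre contracts and how much ATP it spends. Myh3 (embryonic) and Myh8 (perinatal) are the developmental forms, which muscle replaces as it matures. Myh2 (IIa), Myh1 (IIx) and Myh4 (IIb) are the adult fast forms, ordered from slower to faster. Myh7 is the slow form of skeletal fibres and of the ventricle, Myh6 is the fast cardiac form, and Myh7b is an ancient relative found in slow-tonic fibres and in the heart.

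In the GRCm38 annotation (GENCODE M21), 5 members form a tandem cluster of 230 kb on the forward strand of chromosome 11. Their order is Myh3 (chr11:67078300-67102291), Myh2 (chr11:67171027-67197517), Myh1 (chr11:67200052-67224575), Myh4 (chr11:67238029-67260446) and Myh8 (chr11:67277124-67308634). Their identifiers are ENSMUSG00000020908, ENSMUSG00000033196, ENSMUSG00000056328, ENSMUSG00000057003 and ENSMUSG00000055775. Myh2 and Myh1 lie only 2.53 kb apart, whereas 68.7 kb separate Myh3 from Myh2. Myh6 (ENSMUSG00000040752, chr14:54941921-54966927) and Myh7 (ENSMUSG00000053093, chr14:54970684-54994626) lie on the reverse strand of chromosome 14 with a gap of 3.76 kb, and Myh7b (ENSMUSG00000074652, chr2:155611212-155634307) stands alone on chromosome 2. The coding sequences are spliced from 39 to 42 exons in each member.

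The members resemble each other closely, which bears on how well reads can tell them apart. Coding identity was 91.7 % between Myh6 and Myh7, 91.0 % between Myh1 and Myh2 and 90.1 % between Myh1 and Myh4, and it was 68.8 to 72.0 % between Myh7b and any other member. Across the 5 genes of the cluster, 4191 of 5801 aligned coding positions were identical, and the longest stretch without any difference had 58 bases. Exon words of 150 bases, the number of sequencing cycles, were shared with another member for 4.78 % of Myh6, 3.64 % of Myh7, 2.37 % of Myh1 and 1.75 % of Myh2, and for 0 to 0.511 % of the others. With genes outside the family, such words were shared for up to 3.54 % (Myh1), and which genes hold them was not recorded. A value of Myh6 may thus hold some reads of the more abundant Myh7. The 60 coding bases that differ most among the 5 genes of the cluster show what sets the isoforms apart in the reads. They are coding bases 1831 to 1890 of Myh3 and 1837 to 1896 of the others, all exonic, and capitals mark the 40 positions at which the genes are not all alike.
Myh3: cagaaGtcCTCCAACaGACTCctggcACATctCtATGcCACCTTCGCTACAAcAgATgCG
Myh2: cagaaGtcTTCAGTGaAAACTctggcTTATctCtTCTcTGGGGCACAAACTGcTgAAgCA
Myh1: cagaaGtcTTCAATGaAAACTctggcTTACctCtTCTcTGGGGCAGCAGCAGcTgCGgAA
Myh4: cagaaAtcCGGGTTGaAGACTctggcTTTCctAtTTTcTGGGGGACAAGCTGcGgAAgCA
Myh8: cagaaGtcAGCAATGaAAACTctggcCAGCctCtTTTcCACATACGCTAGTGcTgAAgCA

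The promoters of 4 genes of the cluster also share sequence. All 8 members had an entry among the 27025 promoters of RefSeq (GRCm38.p6), each with 250 bases before and 50 after a start site. A run of 14 bases was common to Myh1, Myh2, Myh4 and Myh8, and these were the only 4 promoters to hold it on the strand of the gene. Myh1, Myh4 and Myh8 also shared a run of 15 bases that holds a MEF2 element, the binding motif of the myocyte enhancer factors, found on either strand in 1.89 % of all promoters. The stretches of 90 bases are shown because the genes of this set did not move as a unit under 1 % O2, and capitals mark the run of 14 bases and the MEF2 element.
Myh1: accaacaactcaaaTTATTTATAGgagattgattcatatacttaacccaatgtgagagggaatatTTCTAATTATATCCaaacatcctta
Myh2: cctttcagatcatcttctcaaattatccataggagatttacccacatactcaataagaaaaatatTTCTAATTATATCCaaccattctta
Myh4: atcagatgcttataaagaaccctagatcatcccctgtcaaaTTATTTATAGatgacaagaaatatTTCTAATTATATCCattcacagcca
Myh8: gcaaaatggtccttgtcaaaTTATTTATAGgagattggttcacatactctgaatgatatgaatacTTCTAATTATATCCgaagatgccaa
They lie at chr11:67199877-67199966 (Myh1), chr11:67170837-67170926 (Myh2), chr11:67237589-67237678 (Myh4) and chr11:67277005-67277094 (Myh8), all forward. The core that binds the hypoxia-inducible factors, ACGTG or GCGTG on either strand, occurred in the promoters of Myh1, Myh3, Myh7b and Myh8, and in 43.8 % of all promoters. In Myh7b it overlapped an E-box (CANNTG), a motif held by 72.1 % of all promoters. These matches describe letters in a window and do not locate bound sites.

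The files hold gene counts divided by a size factor, here called normalized counts, from 26541858 to 28173745 reads per library. The members took 0.992 to 1.20 % of all reads. Levels between genes were compared per kilobase (kb) of exon, as the union of annotated exons. Among the unstimulated myotubes of 5 % CTRL, Myh3 led with 22949 ± 860 normalized counts per kb (mean ± SD, n = 6), followed by Myh1 with 17954 ± 498. The others were far below, from Myh4 (2637 ± 183), Myh7 (2244 ± 164) and Myh8 (1959 ± 185) to Myh2 (797 ± 50.6), Myh6 (481 ± 46.4) and Myh7b (149 ± 13.8). These myotubes thus held mostly embryonic and IIx transcripts. The ranges of neighbours in this order overlapped between Myh4 and Myh7 and between Myh7 and Myh8, and did not overlap between any other neighbours. The place of these 3 genes rested on the length used, since the exon union of Myh8 (11.8 kb) and of Myh7 (8.62 kb) is longer than their longest transcripts (6149 and 6230 bases). Per kb of the longest transcript, Myh8 came next after Myh1 in 5 % CTRL, with 3751 ± 354, before Myh7 with 3103 ± 227 and Myh4 with 2637 ± 183.

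The order of the leading isoforms differed with O2. Per kb, Myh3 lay above Myh1 in 6 of 6 libraries of 5 % CTRL and in 6 of 6 of 5 % STIM, and Myh1 lay above Myh3 in 6 of 6 libraries of 1 % CTRL and in 5 of 6 of 1 % STIM. The ratio of Myh3 to Myh1 per kb was 1.28 ± 0.033 in 5 % CTRL and 0.902 ± 0.025 in 1 % CTRL. With stimulation it was 1.28 ± 0.030 in 5 % STIM and 0.955 ± 0.037 in 1 % STIM. The ratio of Myh7 to Myh6, the slow and the fast form of the heart, lay between 4.63 ± 0.107 in 1 % CTRL and 4.82 ± 0.248 in 5 % STIM, so its group means stayed close together.

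**Figure D1:**
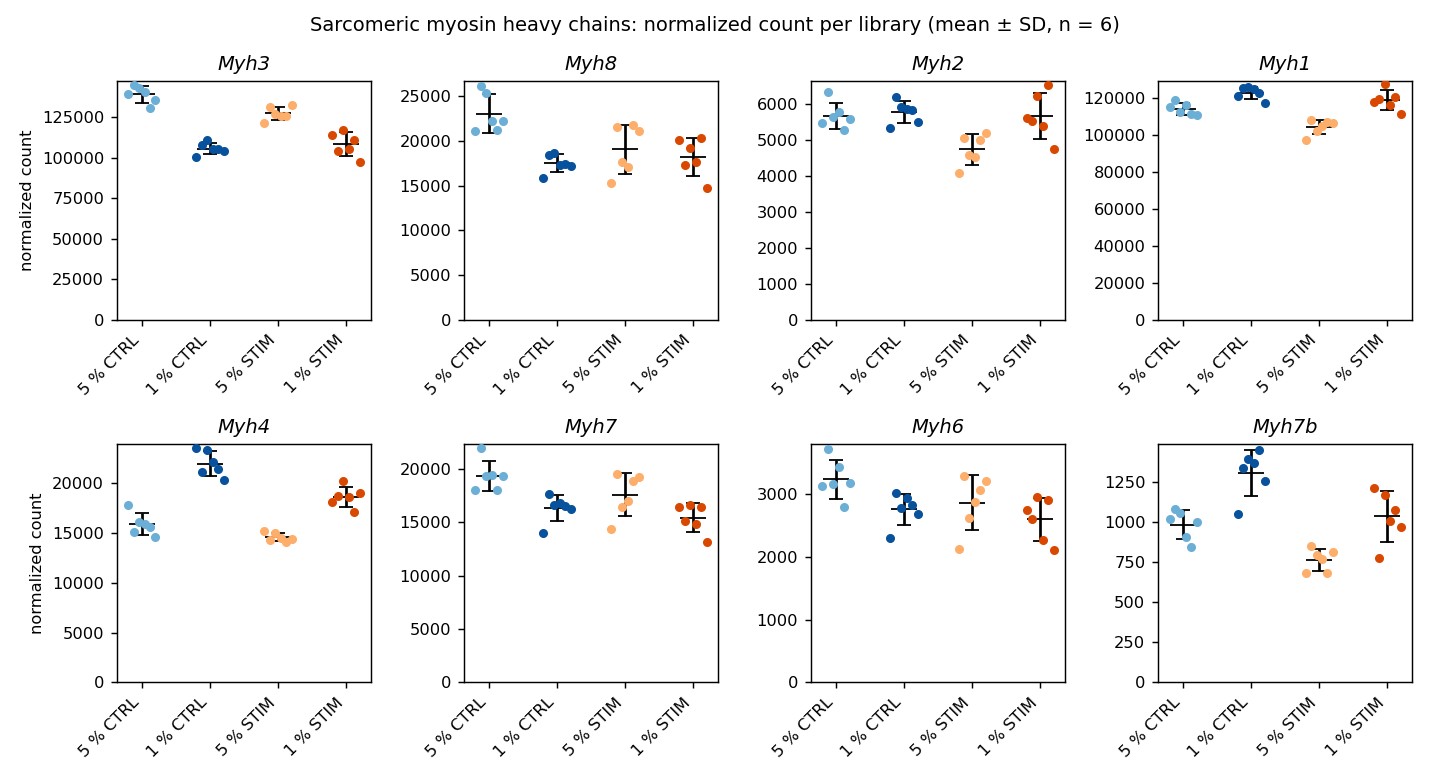
Normalized count of each myosin heavy chain gene (vertical axis, from 0) in each library of the 4 groups (horizontal axis, n = 6), with dots for libraries and bars for the mean ± SD. Myh3 and Myh8 lay lower and Myh4 and Myh7b higher in 1 % CTRL than in 5 % CTRL, and Myh7b was lowest in 5 % STIM with a mean of 766.

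The first comparison asked what 2 h of 1 % O2 did to the heavy chains of resting myotubes. The developmental Myh3 and Myh8 and the slow Myh7 fell, and the adult fast Myh4, the more abundant Myh1 and the ancient Myh7b rose. Of the 8 members, 3 rose and 3 fell past an adjusted p of 0.05 (limma on log2(normalized count + 1), Benjamini-Hochberg over all genes tested). Of all genes tested, 29.4 % rose and 30.5 % fell, so a majority of genes moved in this comparison. The median log2 fold change of the members was -0.10, and that of all genes was 0.0015. With libraries rescaled to the same total, 39.1 % of genes rose and 23.2 % fell.

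Myh3 lay between 130582 and 144842 normalized counts in 5 % CTRL, with a median of 139997. In 1 % CTRL it lay between 100251 and 110899, with a median of 105181. Every library under 1 % O2 was thus below every library under 5 % O2. The log2 fold change was -0.40 ± 0.035 (SE, adjusted p = 9.25e-12), so Myh3 fell by 24 %. Myh8, its perinatal counterpart at the far end of the cluster, had 21104 to 26146 normalized counts in 5 % CTRL (median 22247) and 15879 to 18672 in 1 % CTRL (median 17366). The groups did not overlap here either, and the log2 fold change, -0.40 ± 0.091 (adjusted p = 0.000783), was of the same size as that of Myh3.

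Among the adult fast forms, Myh4 encodes IIb, the fastest. Its normalized counts ran from 14615 to 17821 in 5 % CTRL (median 15771) and from 20342 to 23496 in 1 % CTRL (median 21752). All libraries of 1 % CTRL exceeded all of 5 % CTRL, by a log2 fold change of 0.47 ± 0.041 (adjusted p = 1.33e-11), a rise by 38.5 %. Myh1 (IIx) rose less, from a median of 113697 (110835 to 118749) to 123566 (117354 to 125604). Of its 6 libraries in 1 % CTRL, 5 lay above all of 5 % CTRL. Its log2 fold change was 0.11 ± 0.030 (adjusted p = 0.00295). Myh2 (IIa), whose gene is next to Myh1, had medians of 5625 in 5 % CTRL and 5856 in 1 % CTRL, with ranges of 5277 to 6334 and 5343 to 6203. These ranges overlap in most of their extent. The log2 fold change of Myh2 was 0.02 with a 95 % interval of -0.11 to 0.16 (adjusted p = 0.775).

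Of the slow and cardiac forms, Myh7 had 17993 to 21894 normalized counts in 5 % CTRL (median 19331) and 13980 to 17594 in 1 % CTRL (median 16559). Its groups did not overlap, and it fell by 15.7 % (log2 fold change -0.25 ± 0.076, adjusted p = 0.00765). Myh6, transcribed next to it, ran from 2791 to 3718 (median 3165) and from 2306 to 3013 (median 2794). The log2 fold change of Myh6, -0.23 ± 0.104, was close to that of Myh7 but had an adjusted p of 0.0622. Myh7b, in contrast, ran from 844 to 1080 in 5 % CTRL (median 1010) and from 1048 to 1450 in 1 % CTRL (median 1352). Of its 6 libraries under 1 % O2, 5 lay above all of 5 % CTRL, and its log2 fold change was 0.41 ± 0.097 (adjusted p = 0.000967). The call of Myh7 was lost with libraries rescaled to the same total (adjusted p = 0.0563). Myh6 passed the threshold in the count models, with adjusted p-values of 0.0334 (edgeR), 0.0361 (DESeq2) and 0.0375 (limma voom), with only the groups compared (0.0157), and without 5 % CTRL replicate 5, 5 % STIM replicate 1 or 1 % STIM replicate 6 (0.0359, 0.0288 and 0.0497).

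The same change of O2 in stimulated myotubes was the second comparison, and it shared no library with the first. Myh4, Myh7b, Myh2 and Myh1 rose and Myh3 and Myh7 fell, so 4 members rose and 2 fell. Of all genes tested, 29 % rose and 28.4 % fell, or 37.6 % and 21.9 % with libraries rescaled to the same total. The median log2 fold change of the members was 0.064, and that of all genes was -0.00083.

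Myh3 ran from 121581 to 132471 normalized counts in 5 % STIM (median 126433) and from 97211 to 117315 in 1 % STIM (median 108256). The groups did not overlap, and the log2 fold change was -0.24 ± 0.035 (adjusted p = 6.33e-07). For Myh8 the ranges were 15309 to 21765 (median 19392) and 14698 to 20324 (median 18467), which overlap almost wholly. The log2 fold change of Myh8, -0.06, had a 95 % interval of -0.25 to 0.13 (adjusted p = 0.598), and the difference from the response in resting myotubes is tested as the interaction.

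Of the fast forms, Myh4 rose from a median of 14462 (14059 to 15190) in 5 % STIM to 18690 (17085 to 20229) in 1 % STIM. The groups did not overlap, with a log2 fold change of 0.35 ± 0.041 (adjusted p = 8.32e-09). Myh1 had 97190 to 107969 normalized counts (median 105572) in 5 % STIM and 110968 to 127499 (median 118571) in 1 % STIM. It too was higher in every library under 1 % O2, by a log2 fold change of 0.19 ± 0.030 (adjusted p = 2.27e-06). Myh2 ran from 4075 to 5199 (median 4792) and from 4767 to 6524 (median 5566), and 5 of 6 libraries of 1 % STIM lay above all of 5 % STIM. Its log2 fold change of 0.26 ± 0.067 passed the test (adjusted p = 0.00229).

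Myh7b had 682 to 852 normalized counts in 5 % STIM (median 782) and 779 to 1214 in 1 % STIM (median 1043). It was above the whole range of 5 % STIM in 5 of 6 libraries, with a log2 fold change of 0.43 ± 0.097 (adjusted p = 0.000672). Myh7 ran from 14317 to 19520 (median 17923) and from 13127 to 16626 (median 15756), with wide overlap. Its log2 fold change was -0.18 ± 0.076 (adjusted p = 0.0422). Myh6 ran from 2117 to 3288 (median 2967) and from 2111 to 2945 (median 2675), with a log2 fold change of -0.14 and a 95 % interval of -0.35 to 0.08 (adjusted p = 0.283). The call of Myh7 was lost with no filter on low values (adjusted p = 0.0768), with only the groups compared (0.0947), with rescaled libraries (0.191), and without 5 % STIM replicate 2, 5 or 6 or 1 % STIM replicate 2, 4 or 6 (0.0671 to 0.115). Without 5 % STIM replicate 1, Myh6 was called (log2 fold change -0.22, adjusted p = 0.0495).

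**Figure D2:**
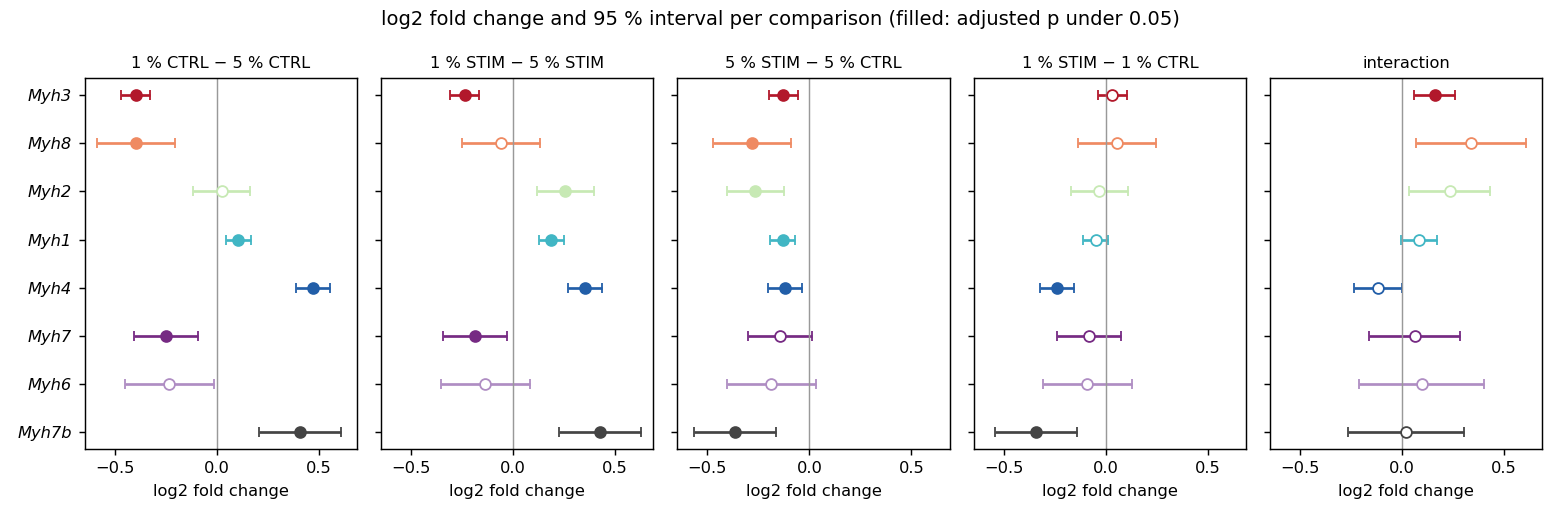
log2 fold change of each gene (horizontal axis) with its 95 % interval in the 4 comparisons and the interaction, filled where the adjusted p is under 0.05. Myh3 lies left of 0 and Myh1, Myh4 and Myh7b right of 0 in both comparisons of O2 (leftmost panels), and all 8 genes lie left of 0 for stimulation in 5 % O2 (middle panel).

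The third comparison addressed stimulation in 5 % O2. All 8 heavy chains had lower means after stimulation, and 6 fell past the threshold (Myh1, Myh2, Myh3, Myh4, Myh7b and Myh8), while none rose by limma, edgeR, DESeq2 or limma voom, or at an unadjusted p under 0.05. Of all genes tested, 12 % fell and 9.44 % rose, or 7.79 % and 12.8 % with libraries rescaled to the same total. The median log2 fold change of the members was -0.17, against -0.0076 for all genes. The 5 % CTRL libraries are those of the first comparison, so the values of both share their controls. The 5 % STIM libraries are those of the second comparison. The fall of Myh2 here and its rise there thus rest on the same 5 % STIM libraries.

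The largest fall was that of Myh7b, from a median of 1010 to 782 normalized counts (682 to 852 in 5 % STIM), a log2 fold change of -0.36 ± 0.097 (adjusted p = 0.00907). In 5 of 6 stimulated libraries it lay below all of 5 % CTRL. Myh8 went from a median of 22247 to 19392 with a wide spread in 5 % STIM (15309 to 21765). Its log2 fold change was -0.28 ± 0.091 (adjusted p = 0.0314). Myh2 was below every control library in all 6 stimulated libraries, with medians of 5625 and 4792 and a log2 fold change of -0.26 ± 0.067 (adjusted p = 0.00604). Myh1 also fell in every library, from a median of 113697 to 105572, by a log2 fold change of -0.13 ± 0.030 (adjusted p = 0.00146).

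The embryonic Myh3 fell by 8.43 %, from a median of 139997 to 126433 normalized counts (log2 fold change -0.13 ± 0.035, adjusted p = 0.00805), and 4 of 6 libraries lay below all controls. Myh4 fell by 7.89 %, from a median of 15771 to 14462 (log2 fold change -0.12 ± 0.041, adjusted p = 0.0359). Myh7, with medians of 19331 and 17923, and Myh6, with medians of 3165 and 2967, did not pass the test. Their log2 fold changes were -0.14 (95 % interval -0.30 to 0.01, adjusted p = 0.198) and -0.19 (95 % interval -0.40 to 0.03, adjusted p = 0.228). The calls of Myh4 and Myh8 depended on the settings. Myh4 was lost with no filter (adjusted p = 0.0747), with rescaled libraries (0.11) and without 5 % CTRL replicate 1, 3 or 4 or 5 % STIM replicate 2, 4, 5 or 6 (0.0588 to 0.123). Myh8 was lost with no filter (0.0579), with only the groups compared (0.0760), with rescaled libraries (0.0510), with the length trend of libraries removed (0.0978) and without 5 % CTRL replicate 2 or 3 or 5 % STIM replicate 1, 3 or 4 (0.0677 to 0.0820).

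Stimulation under 1 % O2, the fourth comparison, called fewer members. Myh4 and Myh7b fell, and none of the 8 rose by any of the 4 tools or at an unadjusted p under 0.05. Of all genes tested, 10.8 % fell and 11.5 % rose, or 8.89 % and 14.7 % with libraries rescaled to the same total. The median log2 fold change of the members was -0.065, against -0.0031 for all genes. Myh4 went from a median of 21752 normalized counts in 1 % CTRL to 18690 in 1 % STIM. All 6 stimulated libraries lay below all unstimulated ones, and the log2 fold change was -0.24 ± 0.041 (adjusted p = 4.24e-05). Myh7b went from 1352 to 1043 (median), a log2 fold change of -0.34 ± 0.097 (adjusted p = 0.0122), with 3 of 6 libraries below all of 1 % CTRL. The call of Myh7b was lost with only the groups compared (adjusted p = 0.0518). The 1 % CTRL libraries are those of the first comparison, and the 1 % STIM libraries are those of the second. The rises of Myh4 and Myh7b in the first comparison and their falls here thus share the 1 % CTRL libraries.

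The other 6 members had log2 fold changes from -0.09 (Myh6) to 0.05 (Myh8) under stimulation in 1 % O2, with adjusted p-values from 0.279 to 0.803. For the abundant genes the intervals were narrow. Myh3 had a 95 % interval of -0.04 to 0.10 and Myh1 one of -0.11 to 0.01, so a fall of Myh3 as large as in 5 % O2 lay outside its interval. For Myh8 the interval was wider, from -0.14 to 0.24.

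The interaction tested the difference itself, as the response to stimulation in 1 % O2 minus that in 5 % O2. It was past the threshold for Myh3 only, at 0.16 ± 0.050 on the log2 scale (adjusted p = 0.0330). Of all genes tested, 5.88 % had a positive and 5.43 % a negative interaction past the threshold. Myh3 fell with stimulation in 5 % O2 and had a log2 fold change of 0.03 (adjusted p = 0.581) in 1 % O2. The interactions of Myh8 (0.34 ± 0.129, adjusted p = 0.104), Myh2 (0.23 ± 0.095, adjusted p = 0.127), Myh1 (0.08 ± 0.043, adjusted p = 0.230) and Myh4 (-0.12 ± 0.058, adjusted p = 0.203) did not pass. That of Myh7b was 0.02 with a 95 % interval of -0.26 to 0.30, so its fall with stimulation was not shown to differ between O2 levels. The call of Myh3 was lost with no filter (adjusted p = 0.0872), with the length trend removed (0.0795) and without 5 % CTRL replicate 2, 3 or 4, 1 % CTRL replicate 5, 5 % STIM replicate 1 or 4, or 1 % STIM replicate 1, 3 or 5 (0.0501 to 0.0681). Without 1 % STIM replicate 6, Myh8 (0.40, adjusted p = 0.0337) and Myh2 (0.28, adjusted p = 0.0301) were called as well.

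Shares of the family total remove the size of the family and the scaling of the library. They were computed in each library from normalized counts per kb, and they sum to 100 %, so a share can rise because another falls. In 5 % CTRL, Myh3 held 46.7 ± 0.455 % of the total and Myh1 36.5 ± 0.612 %. Myh4 held 5.37 ± 0.389 %, Myh7 4.56 ± 0.236 % and Myh8 3.98 ± 0.287 %. Myh2 (1.62 ± 0.061 %), Myh6 (0.976 ± 0.066 %) and Myh7b (0.302 ± 0.022 %) made up the rest. With lengths of the longest transcripts, Myh3 held 43.6 ± 0.408 % and Myh8 7.08 ± 0.490 %.

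Under 1 % O2 the mixture moved from developmental to adult fast forms. In resting myotubes, the share of Myh3 fell by 8.10 percentage points, to 38.6 ± 0.561 %, while Myh1 gained 6.22 points, to 42.7 ± 0.556 %, and Myh4 gained 2.71 points, to 8.08 ± 0.474 %. Myh7b gained 0.134 points and the share of Myh8 fell by 0.695. The shares of these 5 genes had no overlap between the groups of 6 (two-sided exact permutation test, p = 0.00216, the smallest that 6 against 6 can give, adjusted p = 0.00693 over the 32 share tests). How often shares within other sets of genes separate in this way was not tested. In normalized counts, 29.4 % of all genes tested rose and 30.5 % fell in this comparison. Myh2 gained 0.172 points (exact permutation test, adjusted p = 0.0115) and Myh7 fell by 0.378 points (adjusted p = 0.0269), whereas Myh6 did not pass (adjusted p = 0.163). The developmental forms together went from 50.7 ± 0.637 % to 41.9 ± 0.658 %, and the adult fast forms from 43.5 ± 0.784 % to 52.6 ± 0.899 %. The slow and cardiac forms held 5.84 ± 0.294 % and 5.52 ± 0.353 %. The call of the Myh7 share was lost without any 1 of 5 % CTRL replicates 2, 3, 4 and 6 or of 1 % CTRL replicates 1 and 3 (exact permutation test, adjusted p = 0.0510 to 0.0539).

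In stimulated myotubes the move was of the same kind. Myh3 went from 47.0 ± 0.711 % in 5 % STIM to 40.3 ± 0.747 % in 1 % STIM, Myh1 from 36.7 ± 0.432 % to 42.2 ± 0.825 % and Myh4 from 5.44 ± 0.361 % to 7.01 ± 0.512 %. Myh2 rose from 1.48 ± 0.079 % to 1.79 ± 0.127 %. None of these 4 shares overlapped between the groups (exact permutation test, adjusted p = 0.00693 each). Here 29 % of all genes tested rose and 28.4 % fell in normalized counts, and shares within other sets of genes were not tested. Myh7b gained 0.0937 points (adjusted p = 0.0139) and Myh7 fell by 0.518 points (adjusted p = 0.0244), while the shares of Myh8 (adjusted p = 0.634) and Myh6 (adjusted p = 0.258) did not pass.

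With stimulation, 2 shares passed the test in 5 % O2 and 3 in 1 % O2. In 5 % O2 these were Myh2 and Myh7b, which changed by -0.136 and -0.0437 points (exact permutation test, adjusted p = 0.0115 and 0.0173). The shares of Myh3, Myh1 and Myh4 differed by 0.345, 0.171 and 0.0694 points between 5 % STIM and 5 % CTRL (adjusted p = 0.427, 0.683 and 0.799). The share of Myh8 differed by -0.367 points, more than those of Myh2 and Myh7b, and did not pass (exact permutation test, adjusted p = 0.163), nor did Myh6 (-0.0284 points, adjusted p = 0.702) and Myh7 (-0.0111 points, adjusted p = 0.974). In 1 % O2, stimulated myotubes had a higher share of Myh3, by 1.70 points without overlap (adjusted p = 0.00693), and lower shares of Myh4, by -1.07 points, and of Myh7b, by -0.0841 points (adjusted p = 0.0139 each). Without 1 % STIM replicate 6 the share of Myh8 was called (0.285 points, adjusted p = 0.0185), and without 1 % CTRL replicate 1 that of Myh7 (-0.246 points, adjusted p = 0.0385). In all, 18 of the 32 share tests passed, and 18 did so with either other choice of length. These tests are not independent, since the shares of a library are tied by their sum and the comparisons reuse the same groups.

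**Figure D3:**
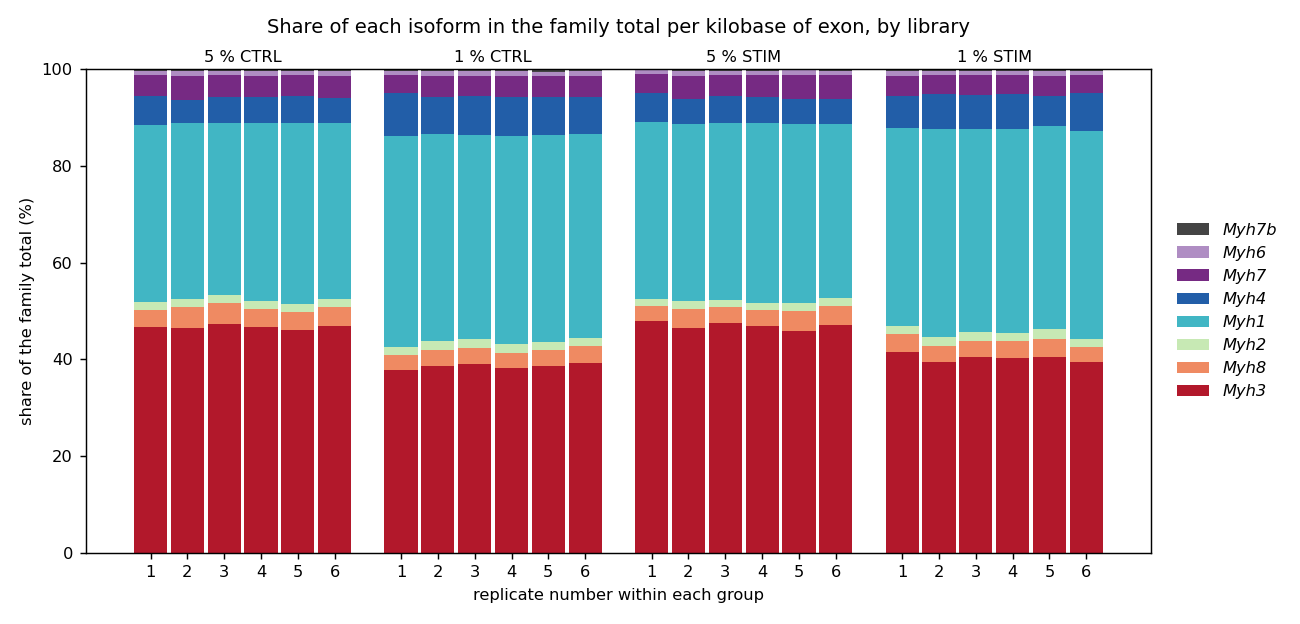
Share of each gene in the family total per kb of exon (vertical axis, percent) in each of the 24 libraries (horizontal axis, replicate numbers within the 4 groups). The blocks of Myh3, at the base, are shorter and those of Myh1 and Myh4 taller in the libraries of 1 % O2, at 38.6 % for Myh3 in 1 % CTRL against 46.7 % in 5 % CTRL.

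The family total per kb, which was not tested, had a mean of 49169 ± 1643 for 5 % CTRL and 45196 ± 1268 for 1 % CTRL. The stimulated groups had 44703 ± 1722 (5 % STIM) and 44323 ± 2459 (1 % STIM). Relative to 5 % CTRL, the difference was -8.08 % for 1 % CTRL and -9.08 % for 5 % STIM. The ranges of 5 % CTRL (46826 to 51483) and 5 % STIM (41847 to 46423) did not overlap. The size factors by which the counts were divided lay between 0.955 and 0.992 under 5 % O2 and between 1.02 and 1.05 under 1 % O2, and with libraries rescaled to the same total the difference between 1 % CTRL and 5 % CTRL was -2.78 %. With this rescaling that between 5 % STIM and 5 % CTRL was -7.10 % and their ranges overlapped, and that of 1 % STIM against 5 % STIM turned from -0.850 % to 4.10 %, with overlap in both cases. In bulk RNA, fewer myotubes and less RNA of these genes per myotube cannot be told apart.

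Some libraries deviated from their group in several members together. Relative to its group mean on the log2 scale, 5 % STIM replicate 1 was at -0.42 for Myh6, -0.30 for Myh8, -0.29 for Myh7 and -0.21 for Myh2. In 1 % STIM replicate 6 the same 4 genes were at -0.29, -0.30, -0.23 and -0.24. The 4 genes were thus low together in these libraries, and Myh4 was not, at 0.06 and 0.03. Myh1 (-0.10 and -0.10), Myh3 (-0.07 and -0.15) and Myh7b (-0.16 and -0.08) were also low there, by less. Over the 24 libraries the deviations of Myh6 and Myh7 had a correlation of 0.956, those of Myh2 and Myh8 0.878, and those of Myh4 with these 4 genes -0.327 to -0.454. Correlations with the same 4 genes were 0.709 to 0.858 for Myh1 and 0.781 to 0.802 for Myh3. These correlations are a description, since all genes of a library share its cells and its depth, and Myh6 and Myh7 share some sequence. In 1 % CTRL replicate 1, Myh7b was at -0.31 and Myh7 at -0.22. In that library longer genes were relatively high, with a slope of 0.0945 log2 units per doubling of exon length, against -0.0367 to 0.0550 in the other 23, and its chi-square per gene against the others of its group was 14.5 to 21.3, where pairs of those others had 2.54 to 4.78. Without it no log2 fold change of a member lost or gained its call.

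**Figure D4:**
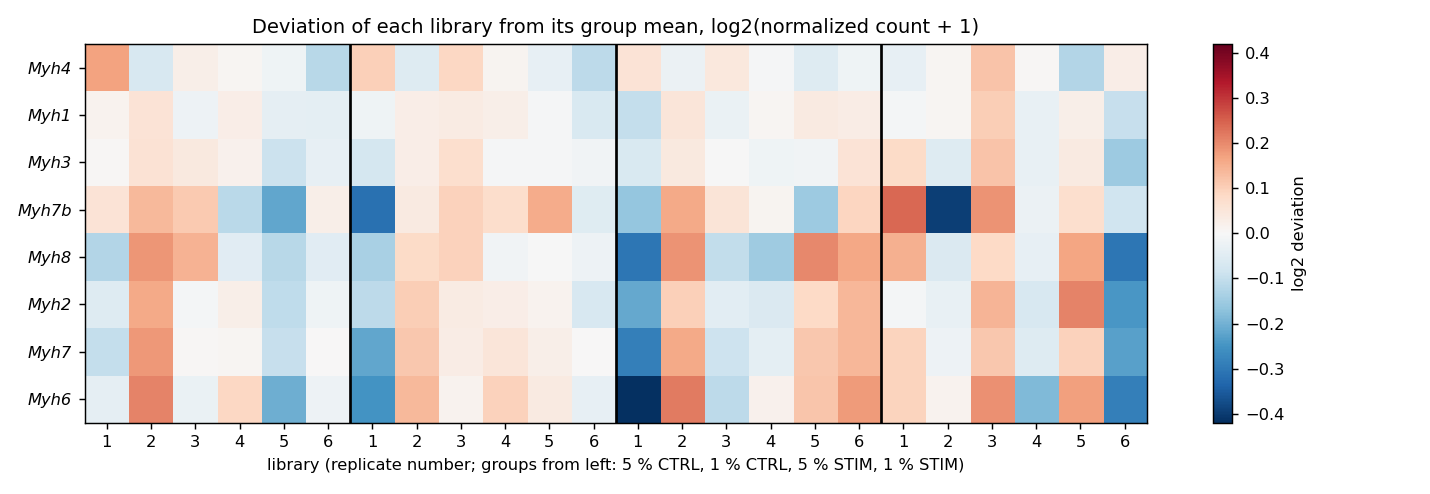
Deviation of each library (horizontal axis) from the mean of its group in log2(normalized count + 1), for each gene (rows), in red where higher and in blue where lower. Myh8, Myh2, Myh7 and Myh6 are blue together in 5 % STIM replicate 1, with -0.42 for Myh6, and in 1 % STIM replicate 6.

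Genes of related function were described from lists. Their counts stand against those of all genes tested, of which 29.4 % rose and 30.5 % fell under 1 % O2 at rest. Between the stimulated groups, 29 % of all genes rose and 28.4 % fell. The other class II heavy chains listed were the non-muscle and smooth muscle forms together with Myh13 and Myh15. Those tested, with Myh13 of eye muscles among them, did not share a direction under 1 % O2. Of 5 tested, 2 rose and 3 fell in resting myotubes, with a median log2 fold change of -0.26. Myh10, a non-muscle form, went from 2460 ± 121 to 3238 ± 171 normalized counts and rose past the threshold (log2 fold change 0.40 ± 0.037, adjusted p = 2.98e-11). Myh9, the main non-muscle form, fell from 91602 ± 7270 to 76165 ± 3484 (log2 fold change -0.26 ± 0.039, adjusted p = 5.47e-07), and it fell in each of the other comparisons as well, with log2 fold changes of -0.12 (5 % STIM against 5 % CTRL, adjusted p = 0.0202), -0.26 (1 % STIM against 5 % STIM, adjusted p = 9.35e-07) and -0.12 (1 % STIM against 1 % CTRL, adjusted p = 0.0258).

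Several partners of the heavy chains in the thick filament fell under 1 % O2. Of 8 myosin-binding and thick-filament genes tested, 5 fell in resting and 6 in stimulated myotubes, and none rose by any tool or at an unadjusted p under 0.05, with medians of -0.16 and -0.17. Mybpc1, the slow myosin-binding protein C, fell from 3925 ± 296 to 2799 ± 154 normalized counts at rest (log2 fold change -0.49 ± 0.054, adjusted p = 1.27e-08). Myom3, which links thick filaments in the M-band, fell from 9481 ± 232 to 7448 ± 279 (log2 fold change -0.35 ± 0.029, adjusted p = 1.76e-12). Mybpc1 was higher in 1 % STIM than in 1 % CTRL (log2 fold change 0.19 ± 0.054, adjusted p = 0.00993) and had a positive interaction (0.28 ± 0.076, adjusted p = 0.0151). Under stimulation in 5 % O2, none of the 8 passed by any tool, and 1 was lower at an unadjusted p under 0.05.

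The other sarcomere lists had few called genes. In resting myotubes under 1 % O2, 1 of 6 sarcomeric light chains, 2 of 11 troponin and tropomyosin genes and 0 of 2 sarcomeric actins fell by limma, and none rose, while edgeR, DESeq2 and limma voom called 1 troponin or tropomyosin gene higher. The light chain was Myl6b, at a log2 fold change of -0.18 ± 0.044 (adjusted p = 0.00101). With stimulation in 5 % O2 none of these genes was called by any tool, and 1, a troponin or tropomyosin gene, was lower at an unadjusted p under 0.05 (limma). In 1 % STIM against 5 % STIM, 2 light chains, 2 of the troponin and tropomyosin genes and 1 actin fell, while Tpm3, a slow tropomyosin, rose (log2 fold change 0.14 ± 0.025, adjusted p = 1.56e-05). The actin was Actc1 (-0.06 ± 0.027, adjusted p = 0.0497), which edgeR and limma voom did not call, and DESeq2 called 3 light chains. In 1 % STIM against 1 % CTRL, Tpm1 (-0.08 ± 0.029, adjusted p = 0.0454) and Actc1 (-0.08 ± 0.027, adjusted p = 0.0378) fell. There edgeR called 0 troponin or tropomyosin genes lower, with 1 lower at an unadjusted p under 0.05, and edgeR, DESeq2 and limma voom each called 1 of them higher.

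Of 6 genes listed as myosin chaperones or acting with them, 4 fell and 1, Ube4b, rose in resting myotubes under 1 % O2. Between the stimulated groups 1 fell and 1 rose. Unc45b, the muscle chaperone dedicated to myosin, fell from 2924 ± 106 to 2487 ± 112 normalized counts (log2 fold change -0.23 ± 0.038, adjusted p = 1.98e-06), and it fell by a like amount between the stimulated groups (-0.22 ± 0.038, adjusted p = 6.75e-06). The general chaperone Hspa8 fell at rest (-0.35 ± 0.035, adjusted p = 1.79e-10), and its response to stimulation differed with O2, with an interaction of 0.33 ± 0.050 (adjusted p = 1.4e-05). Smyd1, a muscle methyltransferase needed for thick filament assembly, fell with stimulation in 5 % O2 (-0.12 ± 0.032, adjusted p = 0.00510). Ube4b rose under 1 % O2 at rest (0.35 ± 0.034, limma, adjusted p = 1.19e-10) and between the stimulated groups (0.39 ± 0.034, adjusted p = 7.39e-12). It also rose with stimulation in 5 % O2 (0.10 ± 0.034, adjusted p = 0.0417) and in 1 % O2 (0.14 ± 0.034, adjusted p = 0.00194).

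Of 27 tested regulators of fibre type, 7 rose and 12 fell in resting myotubes under 1 % O2, with a median of -0.088, and 7 rose and 11 fell in stimulated ones. Over all genes tested, 29.4 % rose and 30.5 % fell at rest, and 29 % rose and 28.4 % fell between the stimulated groups. Maf, of the family of large Maf factors that act on the IIb gene Myh4, fell from 541 ± 46.6 to 246 ± 17.9 normalized counts at rest (log2 fold change -1.13 ± 0.057, adjusted p = 3.47e-18), while Myh4 rose. With stimulation, 6 regulators rose and 4 fell in 5 % O2, and 10 rose and 5 fell in 1 % O2. The shares of all genes that rose and fell were 9.44 % and 12 % in 5 % O2, and 11.5 % and 10.8 % in 1 % O2. Six4, which drives fast genes, rose in both (0.60 ± 0.052 and 0.72 ± 0.052, adjusted p = 5.7e-11 and 4.81e-13). Prox1, which takes part in the slow programme, also rose in both (0.48 ± 0.069 and 0.74 ± 0.069, adjusted p = 2.49e-06 and 2.35e-10). Nfatc1, a calcium-dependent factor of slow fibres, rose from 671 ± 42.5 to 931 ± 37.3 in 5 % O2 and from 575 ± 22.1 to 647 ± 36.3 in 1 % O2, and its interaction was -0.30 ± 0.064 (adjusted p = 0.00118).

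**Figure D5:**
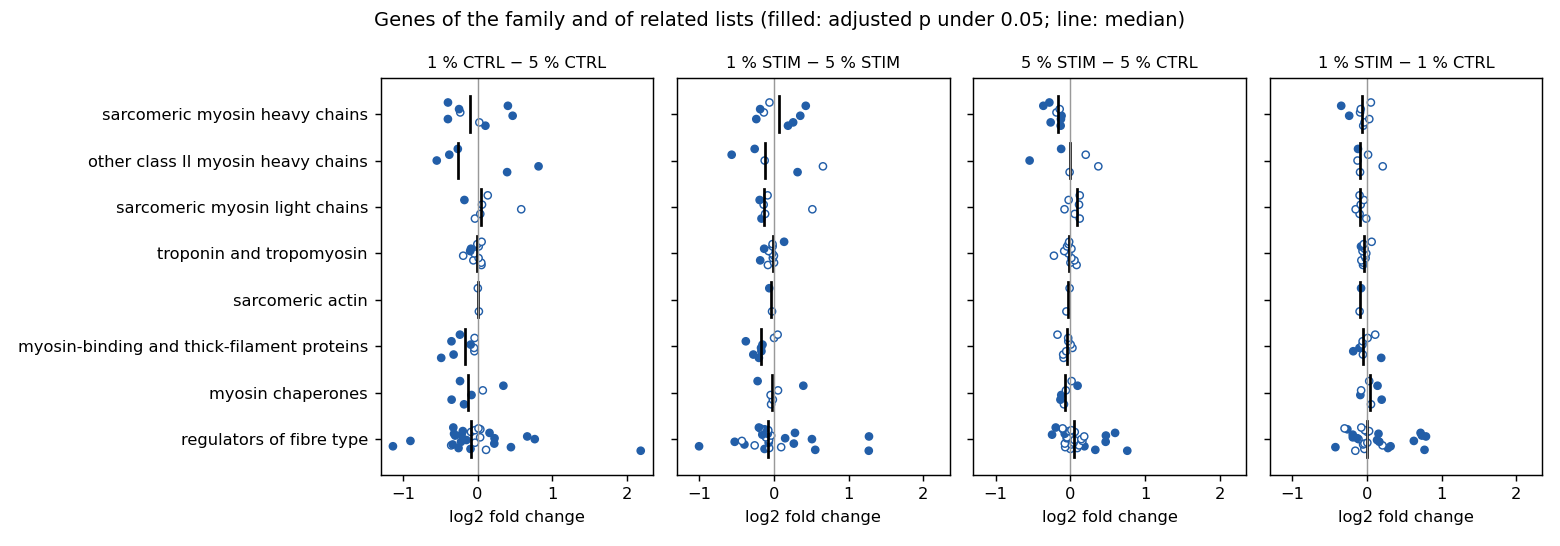
log2 fold change (horizontal axis) of each gene of the heavy chains and 7 related lists in the 4 comparisons, filled where the adjusted p is under 0.05, with a line at the median of each list. The heavy chains spread to both sides under 1 % O2 at rest, with a median of -0.10, while the called myosin-binding and thick-filament genes all lie left of 0.

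The annotation holds 23 other genes within 20 kb of a member, and 9 of them were tested. In resting myotubes under 1 % O2, 2 of these rose and 3 fell, where 29.4 % of all genes tested rose and 30.5 % fell. Sco1, a copper chaperone of cytochrome oxidase beside Myh3, fell from 704 ± 25.9 to 496 ± 29.6 normalized counts (log2 fold change -0.51 ± 0.048, adjusted p = 4.19e-11), as Myh3 did. The other tested neighbour of Myh3, 2310065F04Rik, had a higher mean in 1 % CTRL (84.65) than in 5 % CTRL (74.17). Myh13, a heavy chain of eye muscles next to Myh8 that was named here after its values were seen, had only 19.3 to 56.4 normalized counts. The antisense transcript 9430073C21Rik, near Myh2 and Myh1, rose from a mean of 68.4 to 106 (log2 fold change 0.62 ± 0.098, adjusted p = 1.82e-06). Antisense exons cover 8.11 % of the exon bases of Myh1 (Myhas), 13.3 % of Myh7, 3.32 % of Myh2 and 1.70 % of Myh6. The libraries kept strand but the counting did not use it, so reads of these stretches cannot be told apart by strand. The antisense genes were rare. Myhas lay between 23.5 and 55.1 normalized counts in all libraries, against at least 97190 for Myh1. The exons of 9430073C21Rik overlap those of Myh2, and it lay between 49.7 and 117, against at least 4075 for Myh2. Gm31251, an antisense gene over Myh7, lay between 12.7 and 33.0, against at least 13127 for Myh7.

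Introns of 3 members hold the miRNAs of the slow and cardiac programme. Their mature forms were not measured by these mRNA libraries, in which the genes of all 3 were listed at 0, and their hosts did not move alike, as Myh7b rose and Myh7 fell under 1 % O2. Capitals mark the seed (bases 2 to 8), from RefSeq.
mmu-miR-208a-3p (Myh6): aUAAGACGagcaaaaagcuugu
mmu-miR-208b-3p (Myh7): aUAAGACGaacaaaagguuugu
mmu-miR-499-5p (Myh7b): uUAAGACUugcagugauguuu
The miR-208 forms share the seed UAAGACG, and that of miR-499, UAAGACU, differs from it in its last base.

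For the 3 members with the highest mean level per kb, the genes most like them were sought in the set of 10787 whose mean reached 100, by Pearson correlation of log2(normalized count + 1) over the 24 libraries. Myh3 was most like Pus7l, Nop2 and Gemin5 (r = 0.964, 0.959 and 0.958). Myh1 was most like Lmod1, Lima1 and Ecsit (r = 0.921, 0.917 and 0.910). Myh4 was most like Itsn1, P4ha1 and Nf2 (r = 0.971, 0.967 and 0.962). These values rest largely on the differences between the 4 groups, and with group means removed they lay between 0.588 (P4ha1) and 0.812 (Itsn1).

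The libraries carried the markers of myotubes in quantity, with the 15 listed genes all tested and sums of 426013 to 504627 normalized counts. Under 1 % O2 at rest 7 of them fell and 1 rose, where 30.5 % of all genes tested fell and 29.4 % rose. Their median log2 fold change was 0.018, against 0.0015 for all genes. Myog, a driver of differentiation, fell from 30613 ± 1016 to 19439 ± 857 (log2 fold change -0.66 ± 0.043, adjusted p = 5.26e-14). Mef2c was the marker that rose (0.22 ± 0.033, limma, adjusted p = 3.75e-07). Between the stimulated groups, 9 of the markers fell and 1, Mef2c again, rose, with a median of -0.13 against -0.00083 for all genes. Sums over the 11 myoblast markers had medians of 10073 and 9241 at rest (5 and 1 % O2) and of 9731 and 8399 with stimulation. Of these genes 5 rose and 5 fell under 1 % O2 at rest, with Top2a at a log2 fold change of 0.74, Pax7 at 0.69 and Myod1 at -0.83. Of 6 cardiac markers, 2 were tested, and under 1 % O2 Gata4 rose (log2 fold change 0.55 at rest and 0.64 with stimulation) and Nppb fell (-0.94 and -0.99). Nppa, Myl7 and Tbx5 had no more than 2.92 in any library, while the sum of the list, mostly Gata4, had a median of 196 in 5 % CTRL and 255 in 1 % CTRL, where Myh6 and Myh7 had lower means. Sums over the 5 smooth muscle markers had medians of 10534 and 13577 at rest (5 and 1 % O2) and of 8816 and 11463 with stimulation, with Myh11, the defining heavy chain of smooth muscle, at no more than 26.9. Sums over fibroblast markers, mostly Col1a1, had medians of 49648 and 43157 at rest and of 48695 and 43040 with stimulation. All 3 tested fibroblast markers fell under 1 % O2 at rest (limma, log2 fold change -0.48 for Pdgfra, -0.28 for Dcn and -0.17 for Col1a1), and 1, Dcn, fell in 1 % STIM against 5 % STIM. Mef2c, Pax7, Nppb and the fibroblast markers were named after their values had been seen. The part of these lists in the results was not tested.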

How the data were processed

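Poly(A) RNA was measured in 24 libraries that form 4 groups of 6 by the labels of the samples. Per the labels and the submitters' processing notes, the authors made stranded libraries, aligned single-end reads to GRCm38 (STAR 2.5.4b) and quantified genes with RSEM 1.3.0 at default settings, which do not use strand. The deposited signal is a count per gene that the authors had scaled with DESeq2 size factors. A second table, with fold changes and tests of the authors' own comparisons, was not used.

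The smallest step of each library gave back whole reads for 100 % of values (tolerance 0.01 of a read). In 5 % CTRL replicate 5 and 5 % STIM replicate 3 the size factors were 0.992 and 0.991, so near 1 that whole values are a weaker check there. Replicates differed by more than sampling noise (chi-square per gene at least 2.54), and 1 % CTRL replicate 1 stood apart from its group. Genes that reached a normalized count of 10 in 6 or more libraries entered 1 limma 3.58.1 fit of the 4 groups on log2(normalized count + 1), with eBayes (trend, robust), no replicate block and a threshold of 0.05 on the Benjamini-Hochberg adjusted p-value. SE and 95 % intervals come from this fit. Tested on simulated counts of 14541 genes for 1 % CTRL against 5 % CTRL, it recovered 48.5 % of genes changed by 0.25, 70.1 % by 0.5 and 91 % by 1 on the log2 scale. Shares were compared by exact permutation tests. Lengths, overlaps and sequences come from GENCODE M21 and RefSeq (GRCm38.p6). Alternatives were a replicate block, no filter, a pseudocount of 10, a threshold of 0.01, only the groups compared, rescaled libraries, removal of the length trend, edgeR 4.0.16, DESeq2 1.42.0 and limma voom on whole reads, other lengths, and each library left out, of which all but 1 % CTRL replicate 1 were added after seeing the data.

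All 8 members are named in each comparison. Of other lists, up to 3 called genes per list and comparison with the largest change and a mean of 100 or more in the higher group could be named. Likeness was sought for the 3 members of highest mean level per kb. The members and lists were chosen with earlier results of these data known.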

Additional observations from a re-analysis of the deposited data

Results flagged for a closer look

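Myh7 had a library apart from its group in both unstimulated groups. In 5 % CTRL, replicate 2 had 21894 normalized counts, against 17993 to 19394 in the other 5, and the gap made up 0.641 of the range of the group. In 1 % CTRL, replicate 1 had 13981 against 16257 to 17594, with a gap of 0.630 of the range. Both exceed Dixon's 95 % critical value for 6 samples. Levels, shares and the family total were tested in 68 groups, and chance alone gives about 1 such value in 20 groups, or 3.4 here, against the 2 found. The fall of Myh7 under 1 % O2 at rest was called without either library.

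The response of Myh3 to stimulation differed between O2 levels, with an interaction of 0.16 on the log2 scale (limma, adjusted p = 0.0330). The log2 fold change was -0.13 in 5 % O2 and 0.03 in 1 % O2.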

How the results depend on the processing

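The direction and side of the threshold of a member's log2 fold change were kept in 368 values under another setting, while 18 lost and 4 gained the call and 2 changed sign. With 1 library left out, 918 were kept, 27 lost and 6 gained the call and 9 changed sign. The number of isoform shares called stayed within 1.5 times of 18 under both other lengths and without any 1 of the 24 libraries. At an adjusted p of 0.01 the calls of Myh8 and Myh4 in 5 % STIM against 5 % CTRL, of Myh7 in 1 % STIM against 5 % STIM, of Myh7b in 1 % STIM against 1 % CTRL and of the Myh3 interaction were lost. The other calls that were lost or gained stand beside the values in the report, and the cause was not tested. The number of members called in 1 % STIM against 1 % CTRL fell from 2 to 1 at an adjusted p of 0.01 and with only the groups compared. That of the interaction went from 1 to 0 at 0.01, with no filter and with the length trend removed, and lay between 0 and 3 with a library left out. The family total of 1 % CTRL against 5 % CTRL was -2.78 % with rescaled libraries.

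Values that changed sign had not passed their test. With rescaled libraries, Myh8 in 1 % STIM against 5 % STIM was at 0.0103 (log2), and with the length trend removed the interaction of Myh7b was at -0.00665. The share of Myh7 in 5 % STIM against 5 % CTRL was 0.00426 points higher by longest transcripts and 0.00505 points higher without division by length. With a library left out, the log2 fold change of Myh8 in 1 % STIM against 5 % STIM lay between -0.121 and 0.000558, that of Myh2 in 1 % STIM against 1 % CTRL between -0.0739 and 0.0166, and the interaction of Myh7b between -0.0433 and 0.0984. Share differences in 5 % STIM against 5 % CTRL lay between -0.0328 and 0.337 points for Myh1, -0.0500 and 0.196 for Myh4, -0.0773 and 0.105 for Myh7 and -0.0495 and 0.0107 for Myh6, and in 1 % STIM against 1 % CTRL between -0.0462 and 0.0284 for Myh2.

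Replicate numbers are shared by the groups, but the labels do not say that they mark a culture or a day. Samples of 1 number did not deviate together, as the correlations of 36 such pairs lay between -0.148 and 0.155 (median 0.0062), with 2 over 0.1, and in only 9 of them was the same-numbered library the best match in the other group. With a replicate block no member's call changed, with 6, 6, 6 and 2 members called in the 4 comparisons and 1 in the interaction (adjusted p = 0.0265 for Myh3).

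The lowest level of a member was 682 normalized counts, and the SE of Myh6, Myh8 and Myh7b were 0.091 to 0.104 on the log2 scale. The part of counting error in these SE was not tested.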
